A study of Mus musculus with 12 samples.

Results

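Amino acid transporters were followed in the newborn mouse testis after prenatal and neonatal exposure to dexamethasone (dex), a synthetic glucocorticoid that activates the glucocorticoid receptor. The members were all protein-coding genes of the count table named as numbered members of the solute carrier families Slc1, Slc3, Slc6, Slc7, Slc36, Slc38 and Slc43, which gave 61 of the 54532 genes in the table. Male pups of the strain Tg(Pou5f1-EGFP)2Mnn carried an OCT4-GFP reporter, and testes were sorted on postnatal day 1 (PN1) into OCT4-GFP positive germ cells and OCT4-GFP negative somatic cells. Pregnant dams received 10 μg of dex per g of body weight, or saline alone, at E17.5 and E18.5, and the pups received the same treatment on PN0. RNA-seq libraries were made from 3 samples in each of 4 groups, which were saline germ cells, dex germ cells, saline somatic cells and dex somatic cells. Each sample pooled testes from several litters, so a single value does not describe a single pup. The somatic fraction is every viable GFP-negative cell of the testis, a mixture of Sertoli, Leydig, peritubular, stromal, endothelial and blood cells.

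Solute carriers move amino acids and related compounds across the plasma membrane or the membranes of lysosomes. Some Slc7 proteins work only as heterodimers, in which an Slc3 heavy chain carries an Slc7 light chain to the cell surface and the light chain exchanges amino acids. Sodium-coupled carriers of the Slc1, Slc6 and Slc38 families concentrate their substrates, and heteromeric exchangers use these stores to bring in leucine and other essential amino acids. In the testis, Sertoli cells supply nutrients to the germ cells they surround, and glucocorticoids are known regulators of amino acid handling in liver and muscle.

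The 12 libraries held between 18459692 and 25178477 counted reads. Germ cell markers summed to 2790 to 3035 CPM (counts scaled to a common library size by TMM) in the germ cell libraries and to 3.12 to 5.67 CPM in the somatic libraries. Levels are given as CPM within a gene and as FPKM, which also scales by transcript length, between genes, and differences are log2 fold changes from edgeR with their standard errors (SE). A gene was called when its adjusted p-value over all tested genes was at or under 0.05. In bulk samples, fewer cells of a type and less RNA per cell cannot be told apart. Of the 61 transporters, 8 had too few counts to pass the count filter of any main fit (Slc6a5, Slc6a18, Slc6a19, Slc7a12, Slc7a13, Slc36a3, Slc38a8 and Slc38a11).

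The transporter genes together gave more signal in somatic cells than in germ cells. Their summed level was 382 ± 13.2 FPKM (SD, n = 3) in saline germ cells and 485 ± 7.23 FPKM in saline somatic cells. With dex the sums were 397 ± 20.7 FPKM in germ cells and 493 ± 10.2 FPKM in somatic cells, so each treated group lay within or close to the spread of its control. The number of members at a mean of 10 FPKM or more was 4 in saline germ cells, 6 in dex germ cells, 12 in saline somatic cells and 12 in dex somatic cells. At 1 FPKM or more the counts were 31, 30, 30 and 30 in the same order. No read was counted in any of the 3 libraries for 3 members in either germ cell group and for 9 members in either somatic group.

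A single gene, Slc7a5, dominated these sums. Slc7a5 (chr8:121881150-121907694, minus strand, mm10) encodes the light chain of the main leucine and large neutral amino acid exchanger. It stood at 167, 179 and 171 FPKM in saline germ cells and at 182, 149 and 185 FPKM in dex germ cells. In somatic cells it stood at 121, 103 and 110.1 FPKM with saline and at 119.9, 107 and 109.6 FPKM with dex. Every germ cell library was above every somatic library, and the germ cell level was higher by 0.51 (SE 0.0778) on the log2 scale in saline. Slc7a5 alone made up 45.1% of the summed transporter FPKM in saline germ cells and 23.0% in saline somatic cells.

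Its partner Slc3a2 (chr19:8706882-8723369, minus strand), the heavy chain shared by several light chains, was the second most abundant member in all 4 groups. Slc3a2 measured 67.0 ± 3.70 FPKM in saline germ cells and 76.4 ± 8.88 FPKM in saline somatic cells, a difference of -0.31 (SE 0.0885, adjusted p-value 0.00679) on the log2 scale. The direction was thus opposite to that of Slc7a5, although the Slc3a2 call was lost when libraries were scaled by their totals (adjusted p-value 0.0958) and in limma on FPKM (0.112). The ratio of Slc7a5 to Slc3a2 FPKM was 2.58 ± 0.101 in saline germ cells and 1.46 ± 0.119 in saline somatic cells. With dex the ratios were 2.59 ± 0.201 and 1.51 ± 0.0686. Neither gene was called for dex in either cell type.

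**Figure D1:**
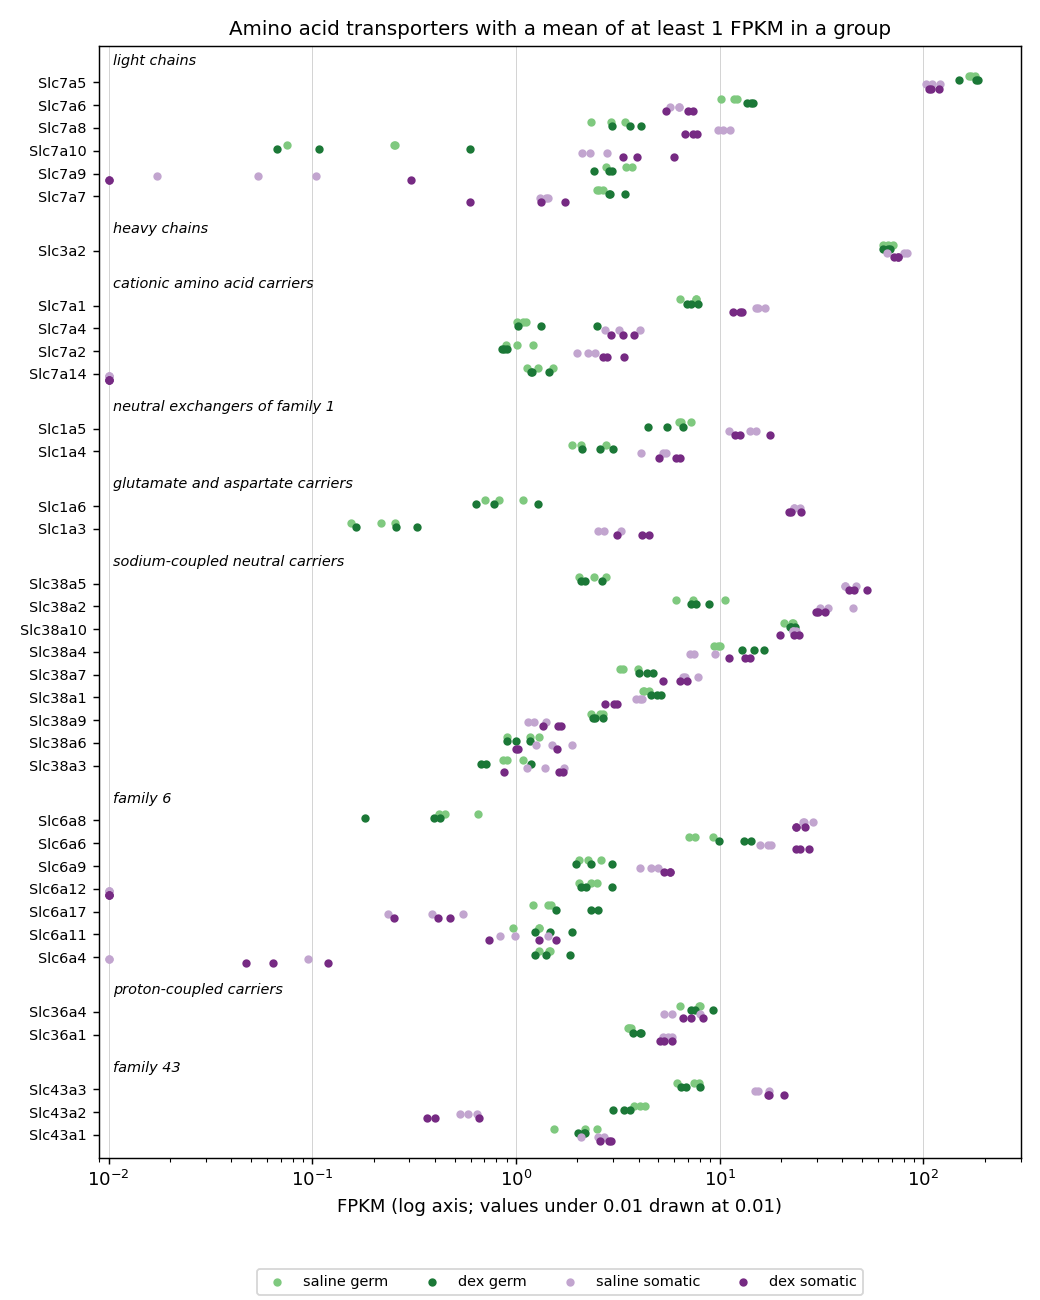
Levels of the 36 members that reached a mean of 1 FPKM in at least 1 group, with FPKM on a logarithmic axis, a point for each of the 12 libraries coloured by group, and members sorted by role. Values under 0.01 FPKM are drawn at 0.01. Slc7a5 and Slc3a2 stand above the other members in every group, and Slc7a5 reaches 173 FPKM in saline germ cells.

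In saline samples 50 members could be tested and 43 were called, with 19 higher in germ cells against 24 in somatic cells. Over all genes 76.5% were called, 39.8% toward germ cells and 36.7% toward somatic cells, so a large count was the rule for this contrast and the members' share was near that background. The median difference over the members was -0.10 on the log2 scale, beside 0.07 over all genes. With dex 40 of 50 members were called, with 18 higher in germ cells against 22 in somatic cells, beside 76.3% of all genes (40.5% and 35.7%). The scale of this contrast depended on normalization, as the median over all genes moved from 0.07 to 0.21 with library totals and to 0.17 with DESeq2 size factors.

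Among the Slc7 light chains, 5 of 8 tested were higher in germ cells and the other 2 called ones in somatic cells. Slc7a6, a light chain that exchanges cationic for neutral amino acids, was higher in germ cells by 0.78 on the log2 scale (52.4 ± 5.18 against 29.2 ± 2.32 CPM). Slc7a9, the light chain of the cystine and basic amino acid carrier, gave 168, 176 and 204 counts in saline germ cells and 3, 7 and 1 counts in saline somatic cells, a log2 difference of 5.61. Its heavy chain Slc3a1 stayed at 8, 18 and 3 counts in the same germ cell libraries, and 26.5% of the Slc3a1 exon bases overlap Prepl on the opposite strand. Slc7a11, the cystine and glutamate exchanger, was at 3.41 ± 0.471 CPM in saline germ cells against 1.43 ± 0.930 CPM in saline somatic cells. Its call was lost without saline germ replicate 1, 2 or 3, and without saline somatic replicate 1 or 2.

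Slc7a8 and Slc7a10 ran the other way. Slc7a8 (ENSMUSG00000022180, chr14:54722209-54781946, minus strand), a light chain for neutral amino acids, measured 17.3, 11.7 and 14.7 CPM in saline germ cells and 50.3, 60.9 and 53.7 CPM in saline somatic cells, a log2 difference of -1.98. Slc7a10, which carries small neutral amino acids, measured 0.410 ± 0.217 CPM in germ cells against 5.31 ± 0.688 CPM in somatic cells, a log2 difference of -3.72. Of the exon bases of Slc7a10, 17.9% overlap Lrp3 on the opposite strand, and reads of the pair cannot be told apart without strand.

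The cationic amino acid carriers divided between the cell types. Slc7a1 (ENSMUSG00000041313, chr5:148327410-148399904, minus strand), the main carrier of arginine and lysine in many cells, was lower in germ cells by 1.24 on the log2 scale, with 83.8 ± 8.65 CPM against 190.0 ± 16.5 CPM in somatic cells. Slc7a2 was at 9.54 ± 1.54 CPM in germ cells against 21.4 ± 2.84 CPM in somatic cells. Slc7a3 was weakly expressed, at 2.38 ± 0.624 CPM in germ cells against 0.933 ± 0.460 CPM in somatic cells, and its log2 difference of 1.28 (adjusted p-value 0.0299) was no longer called without saline germ replicate 1 (0.129), saline germ replicate 3 (0.0865) or saline somatic replicate 3 (0.0799).

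Slc7a14 (chr3:31202858-31310378, minus strand), a relative of the cationic carriers that resides in lysosomes, was detected in germ cells and in no somatic library. It gave 286, 282 and 227 counts in saline germ cells and 249, 374 and 243 counts in dex germ cells, with no count in any of the 6 somatic libraries. Against a floor of 3 counts per library, the level in germ cells was at least 92.4-fold higher with saline and at least 81.3-fold higher with dex. Slc6a12, the betaine and GABA carrier (chr6:121343076-121365775, plus strand), had the same form, with 141, 134 and 156 counts in saline germ cells, 135, 237 and 140 in dex germ cells and none in any somatic library. Its level in germ cells was at least 50.0-fold higher with saline and at least 47.7-fold higher with dex.

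The promoters of members that set the cell types apart are printed here because their CpG content differed widely. RefSeq promoter windows of 300 bases (GRCm38.p6, 250 bases before to 50 after the start) were at hand for 43 of the 61 members, in 64 windows, and over all 32851 windows the median held 7 CpG dinucleotides (quartiles 3 and 20). The windows below run 5′ to 3′ on the gene's strand with CpG in capitals. The germ cell member Slc7a14 had 18 CpG, the germ cell member Slc6a12 had 5, the somatic member Slc1a6 had 32 and the somatic member Slc38a5 had 10.
Slc7a14 (chr3:31310270-31310569, minus strand): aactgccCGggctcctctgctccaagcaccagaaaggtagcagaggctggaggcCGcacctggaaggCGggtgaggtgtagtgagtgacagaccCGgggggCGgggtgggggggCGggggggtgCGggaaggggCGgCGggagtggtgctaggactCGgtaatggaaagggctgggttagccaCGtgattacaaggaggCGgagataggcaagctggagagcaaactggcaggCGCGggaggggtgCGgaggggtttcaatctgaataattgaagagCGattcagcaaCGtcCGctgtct
Slc6a12 (chr6:121342826-121343125, plus strand): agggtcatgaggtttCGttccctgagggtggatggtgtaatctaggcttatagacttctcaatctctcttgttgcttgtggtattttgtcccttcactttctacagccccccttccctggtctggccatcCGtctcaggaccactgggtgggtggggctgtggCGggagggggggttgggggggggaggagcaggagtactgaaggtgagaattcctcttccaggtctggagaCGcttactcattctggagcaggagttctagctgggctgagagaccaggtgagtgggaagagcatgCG
Slc1a6 (chr10:78780246-78780545, plus strand): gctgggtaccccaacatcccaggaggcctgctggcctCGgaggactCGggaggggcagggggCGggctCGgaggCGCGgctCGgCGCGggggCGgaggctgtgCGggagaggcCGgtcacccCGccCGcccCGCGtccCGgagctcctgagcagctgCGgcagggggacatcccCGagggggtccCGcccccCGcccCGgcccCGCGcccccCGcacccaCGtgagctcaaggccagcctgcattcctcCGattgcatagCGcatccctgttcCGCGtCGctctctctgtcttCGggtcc
Slc38a5 (chrX:8271131-8271430, plus strand): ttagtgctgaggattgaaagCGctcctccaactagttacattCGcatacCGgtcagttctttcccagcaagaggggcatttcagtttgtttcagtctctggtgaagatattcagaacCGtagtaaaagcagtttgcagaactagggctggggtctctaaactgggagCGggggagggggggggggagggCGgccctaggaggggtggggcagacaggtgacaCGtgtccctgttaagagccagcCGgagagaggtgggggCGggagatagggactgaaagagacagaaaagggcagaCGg
These 4 windows were chosen with their CpG content known, so they cannot show whether CpG content follows the cell type. Slc6a12 also had windows at other starts, which held 2 to 5 CpG.

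The glutamate and aspartate carriers split by gene rather than shifting together. Slc1a6 (chr10:78780496-78814765, plus strand) gave 40, 44 and 31 counts in saline germ cells and 1032, 1245 and 1147 counts in saline somatic cells, a log2 difference of -4.89. Slc1a3 followed the same direction, at 1.79 ± 0.439 CPM in germ cells against 25.3 ± 3.30 CPM in somatic cells (-3.88). The other 3, Slc1a1, Slc1a2 and Slc1a7, were called higher in germ cells but measured at most 0.426 FPKM in any saline library. Slc1a1 gave 30, 49 and 25 counts in saline germ cells and none in saline somatic cells, a level at least 12.3-fold higher. It shares 31.9% of its exon bases with the antisense gene 4430402I18Rik, which had 338 counts over the 12 libraries beside 329 for Slc1a1. As a group these carriers held 0.544% of the summed FPKM in saline germ cells and 5.48% in saline somatic cells.

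Both neutral exchangers of the Slc1 family were lower in germ cells. Slc1a5, the glutamine exchanger, measured 27.9 ± 2.06 CPM in germ cells against 58.8 ± 10.4 CPM in somatic cells, a log2 difference of -1.14. Slc1a4, which exchanges alanine, serine and cysteine, measured 8.84 ± 1.80 and 20.3 ± 3.34 CPM (-1.27).

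Sodium-coupled carriers of the Slc38 family contributed 14.4% of the summed FPKM in saline germ cells and 26.1% in saline somatic cells, and 6 of 9 tested were higher in somatic cells while 1 was higher in germ cells. Slc38a5 (chrX:8271133-8280179, plus strand), a carrier of glutamine, asparagine and histidine, gave 5.44, 6.24 and 4.53 CPM in saline germ cells and 94.1, 101 and 108 CPM in saline somatic cells, a log2 difference of -4.29. Slc38a2 (chr15:96687392-96699730, minus strand), a carrier that cells raise when amino acids run short, measured 65.6, 94.1 and 54.0 CPM in germ cells and 281, 435 and 311 CPM in somatic cells (-2.33). Slc38a9, the lysosomal arginine sensor that signals to mTORC1, was the member higher in germ cells, at 42.4 ± 3.02 CPM against 22.0 ± 1.87 CPM (0.89). Slc38a10, an abundant member at 22.2 ± 1.26 FPKM in germ cells and 23.2 ± 0.366 FPKM in somatic cells, was called lower in germ cells by 0.19 (SE 0.0384), a call that was lost with library totals (adjusted p-value 0.515) and DESeq2 size factors (0.268), and without saline germ replicate 1 (0.0763), saline germ replicate 2 (0.0827), saline somatic replicate 2 (0.0571) or saline somatic replicate 3 (0.0730).

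In the Slc6 family 6 of 14 tested members were higher in each cell type. Slc6a8, the creatine carrier (chrX:73673150-73682502, plus strand), gave 53, 41 and 69 counts in saline germ cells and 2759, 3375 and 3228 counts in saline somatic cells, a log2 difference of -5.84 (adjusted p-value 1.06e-11). Slc6a6, the taurine carrier, was lower in germ cells by 1.21, and Slc6a9, a glycine carrier, by 1.10. Of the exon bases of Slc6a9, 27.8% overlap Ccdc24, 9.94% Gm17114 and 0.895% B4galt2, all on the opposite strand, with 104, 0 and 24991 counts beside 4853 for Slc6a9. The somatic side also held Slc6a14, Slc6a15 and Slc6a21, which stayed under 5 CPM and differed by -5.23, -3.68 and -5.11 on the log2 scale. On the germ cell side, the serotonin carrier Slc6a4 gave 133, 126 and 134 counts against 9, 1 and 0 in somatic cells (5.23).

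In the Slc36 and Slc43 families 2 of 3 tested members were called in each, 1 in either direction. Slc36a1, a proton-coupled carrier of small neutral amino acids, and Slc36a4, a carrier of proline and tryptophan, measured 3.61 ± 0.0566 and 7.45 ± 0.895 FPKM in saline germ cells and 5.57 ± 0.284 and 6.38 ± 1.43 FPKM in saline somatic cells, and Slc36a1 was called lower in germ cells by 0.75. Slc36a2 gave 48, 25 and 33 counts in saline germ cells and a single count over the saline somatic libraries, a ratio of 110.6 with a 95% exact counting interval of 19.4 to 4410. Slc43a2, a carrier of branched-chain and other neutral amino acids, was higher in germ cells by 2.67 (40.8 ± 2.45 against 6.15 ± 0.590 CPM). Slc43a3, which carries purine nucleobases, was lower in germ cells by 1.27, and Slc43a1 measured 11.9 ± 2.85 and 14.6 ± 2.01 CPM.

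**Figure D2:**
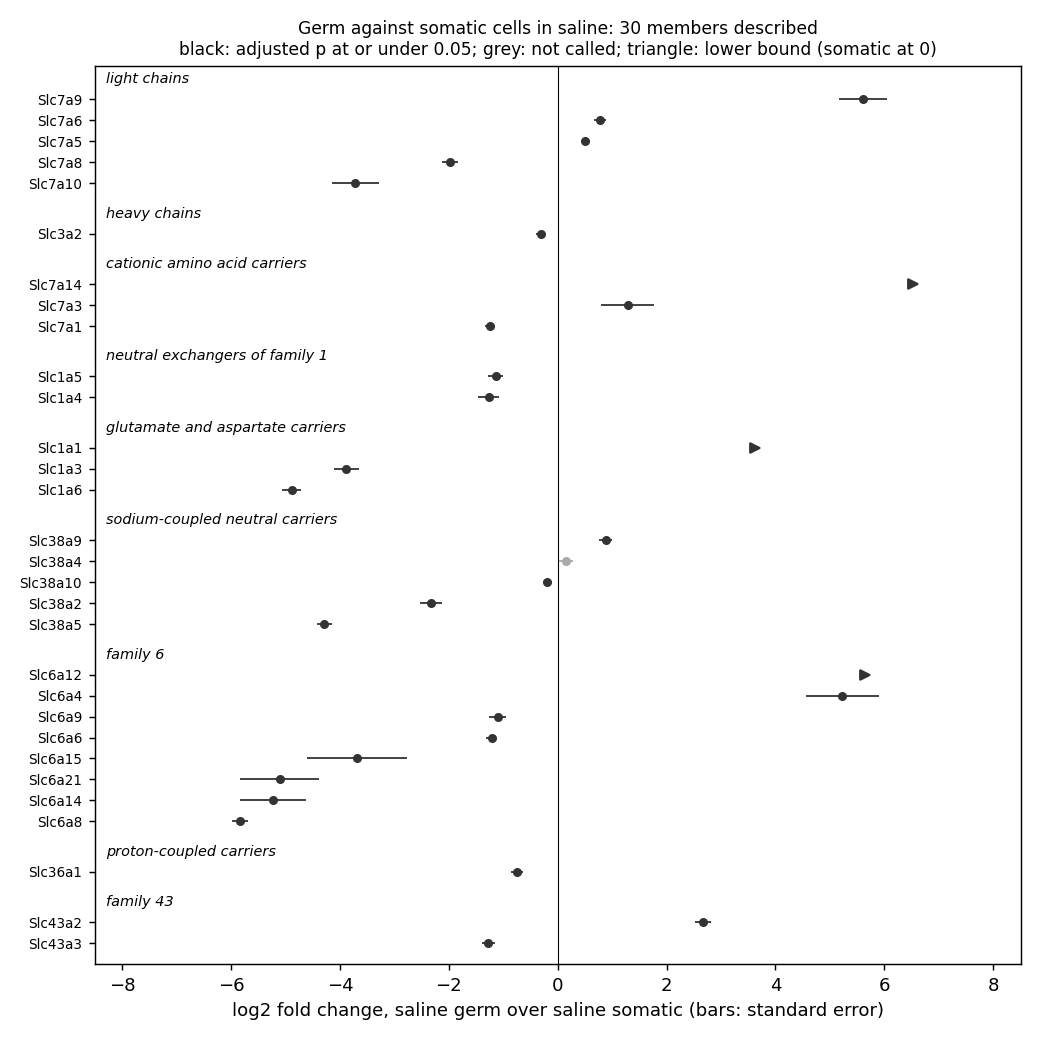
Log2 difference between germ and somatic cells in saline samples for 30 of the 50 members tested, with bars for the standard error, black for called members, and values above 0 higher in germ cells. Triangles mark lower bounds for members with no somatic count, and the lowest point is Slc6a8 at -5.84.

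Somatic marker genes had counts in the germ cell libraries. Over 34 somatic marker genes, the saline germ cell level was a median of 2.59% of the somatic level (range 0.334% to 180%). Of the members with at least 5 CPM in saline somatic cells, the 5 with the lowest such shares were Slc6a8 at 1.82%, Slc1a6 at 3.54%, Slc38a5 at 5.36%, Slc1a3 at 7.06% and Slc7a10 at 7.73%. The part of somatic cells or RNA in these germ cell levels was not tested. In the other direction, germ cell markers in somatic libraries summed to at most 5.67 CPM.

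**Figure D3:**
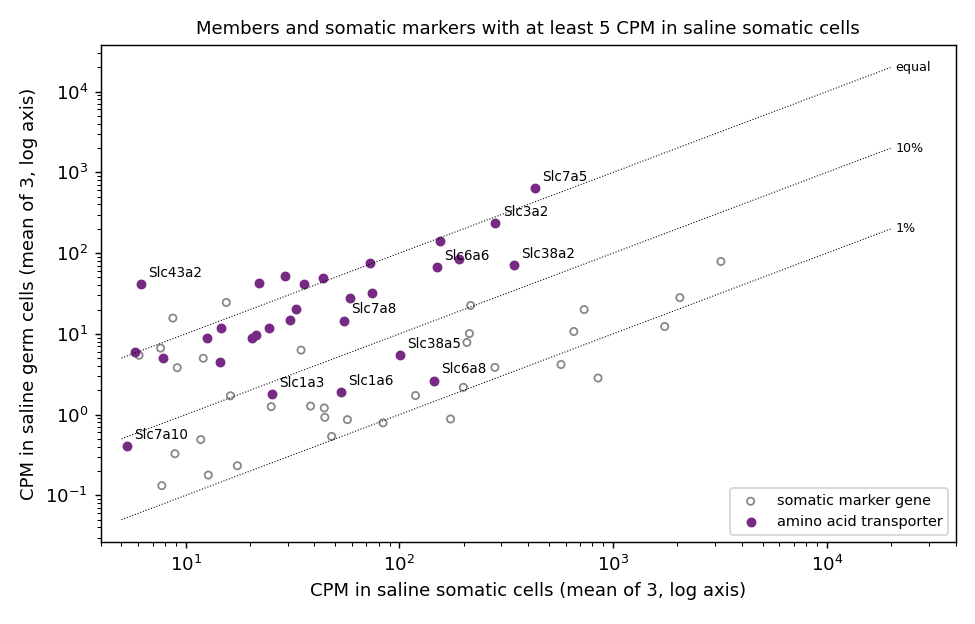
Mean CPM in saline germ cells against mean CPM in saline somatic cells, both on logarithmic axes, for members (filled) and somatic marker genes (open) with at least 5 CPM in somatic cells, with dotted lines where germ cells hold the same level, 10% or 1% of it. Slc6a8, Slc1a6 and Slc38a5 lie among the somatic markers, while Slc7a5 lies above the line of equal levels.

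With dex, Slc38a4 and Slc6a6 rose in both germ cells and somatic cells, and Slc38a1, Slc7a8 and Slc7a1 fell in somatic cells. In germ cells 2 of 51 tested members were called, both higher, where 1.25% of all tested genes were called (0.739% higher, 0.507% lower), and 8 members had an unadjusted p-value under 0.05. In somatic cells 5 of 39 were called, 2 higher and 3 lower, where 3.91% of all tested genes were called (2.74% higher, 1.17% lower), and 10 had an unadjusted p-value under 0.05. Higher genes made up 70.1% of all somatic calls, a share that fell to 53.5% with library totals. The median log2 fold change over the members was 0.06 in germ cells and -0.00017 in somatic cells, beside -0.0027 and -0.0066 over all genes.

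Slc38a4 (ENSMUSG00000022464, chr15:96994820-97055956, minus strand) encodes a sodium-coupled carrier of neutral amino acids and is an imprinted gene known from the placenta and liver. In germ cells it measured 43.3, 41.9 and 39.7 CPM with saline and 69.5, 62.8 and 54.5 CPM with dex. In somatic cells it measured 31.1, 43.7 and 32.7 CPM with saline and 58.3, 60.7 and 48.3 CPM with dex. The dex libraries lay above all saline libraries in both cell types. The rise was 0.57 (SE 0.107, adjusted p-value 0.0187) on the log2 scale in germ cells and 0.68 (SE 0.130, adjusted p-value 0.00712) in somatic cells, and the germ cell effect minus the somatic effect was -0.07 (95% interval -0.47 to 0.34). The germ cell call was lost without dex germ replicate 1 (adjusted p-value 0.0805), saline germ replicate 1 (0.0809) or saline germ replicate 2 (0.0767), in the joint fit of all 12 libraries (0.0636) and in limma on FPKM (0.0915 and 0.0923), and the somatic call without saline somatic replicate 3 (0.0504) and in limma (0.0651 and 0.0656).

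Slc6a6 (ENSMUSG00000030096, chr6:91684053-91759066, plus strand), the taurine carrier, also rose in both cell types. It measured 60.2, 64.8 and 78.0 CPM in saline germ cells and 110.2, 120.3 and 83.7 CPM in dex germ cells. The third dex germ library was close to the highest saline library, and the rise was 0.62 (SE 0.126, adjusted p-value 0.0287). In somatic cells Slc6a6 measured 148, 164 and 138 CPM with saline and 213, 233 and 204 CPM with dex, a rise of 0.57 (SE 0.0816, adjusted p-value 0.000642) that stayed called in all 16 settings examined. The germ cell effect minus the somatic effect was 0.09 (95% interval -0.27 to 0.46). In germ cells the call was lost without dex germ replicate 1 (adjusted p-value 0.0941), dex germ replicate 2 (0.0645), saline germ replicate 1 (0.167) or saline germ replicate 2 (0.132), and in limma (0.169 and 0.163).

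Slc38a1 (ENSMUSG00000023169, chr15:96571418-96642913, minus strand), a glutamine carrier and a close relative of Slc38a4, fell in somatic cells. Its somatic levels were 68.2, 77.7 and 72.0 CPM with saline and 48.4, 52.5 and 55.3 CPM with dex, a log2 fold change of -0.44 (SE 0.0977, adjusted p-value 0.0168). In germ cells they were 78.4, 74.2 and 72.7 CPM with saline and 83.8, 88.9 and 79.3 CPM with dex, a log2 fold change of 0.15 (adjusted p-value 0.434). The dex libraries were thus below all saline libraries in somatic cells and slightly above them in germ cells. In the main edgeR fit (minimum count of 10) Slc38a1 was the only member whose dex effect differed between the cell types past the threshold. In that fit 0.827% of all 20551 tested genes were called. DESeq2, and edgeR with every gene with a count, also called Slc1a2, Slc6a21 and Slc7a8. For Slc38a1 the germ minus somatic difference was 0.63 (SE 0.125, 95% interval 0.37 to 0.90, adjusted p-value 0.0253). In dex samples the germ cell level was higher by 0.62 (SE 0.0942, adjusted p-value 7.13e-05).

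The calls for Slc38a1 depended on single libraries and on the test. The somatic fall was not called without dex somatic replicate 1 (adjusted p-value 0.0782), dex somatic replicate 2 (0.0524) or saline somatic replicate 3 (0.0743), nor in limma (0.188 and 0.183). The difference between cell types was not called without any one germ library other than dex germ replicate 3 (0.0502 to 0.0690), nor without dex somatic replicate 1 (0.0535), dex somatic replicate 2 (0.0533) or saline somatic replicate 3 (0.0609), nor in limma (0.116 and 0.0871), and its size lay between 0.56 and 0.68 with any library left out.

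Slc38a1, Slc38a2 and Slc38a4 lie next to each other on chromosome 15, all on the minus strand. The gap is 44478 bases between Slc38a1 and Slc38a2 and 295089 bases between Slc38a2 and Slc38a4, with 0 other protein-coding genes in either gap. The neighbours moved apart with dex, as Slc38a4 rose in both cell types and Slc38a1 fell in somatic cells. Slc38a2, between them, was not called. It measured 281, 435 and 311 CPM in saline somatic cells and 299, 270.1 and 269 CPM in dex somatic cells, and saline somatic replicate 2 was far above the other libraries.

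The promoter of Slc38a4 at its annotated start is shown because this gene rose in both cell types. It runs 5′ to 3′ with CpG in capitals and holds 5 CpG.
Slc38a4 (chr15:97055907-97056206, minus strand): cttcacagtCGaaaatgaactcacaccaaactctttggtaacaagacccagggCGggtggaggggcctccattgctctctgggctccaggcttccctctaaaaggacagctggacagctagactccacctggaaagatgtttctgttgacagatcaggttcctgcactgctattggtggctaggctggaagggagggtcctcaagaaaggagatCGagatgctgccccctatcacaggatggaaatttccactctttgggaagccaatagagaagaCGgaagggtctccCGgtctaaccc
The glucocorticoid receptor binds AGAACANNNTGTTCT, a palindrome of a pair of arms. Searched on both strands, this full site was in 3 of the 32851 promoter windows (0.00913%) and in none of the members' windows. A single arm, AGAACA, was in 19.0% of all windows and in a window of 9 of 43 members, among them the called genes Slc38a4 and Slc7a1 and the uncalled gene Slc6a21. The others with the arm were Slc1a3, Slc36a1, Slc6a13, Slc6a19, Slc7a7 and Slc7a11, none of them called with dex in the main fits. Of the remaining members called with dex, Slc7a8 had a window without the arm, and Slc6a6 and Slc38a1 had no window. The matches of Slc38a4, Slc7a1 and Slc6a21 are printed with the arm in capitals, read here on the opposite strand as TGTTCT. They lie in windows of alternative starts inside all 3 annotated genes.
Slc38a4 (chr15:97020310-97020609, minus strand): taaggcactaaTGTTCTttctagctgct
Slc7a1 (chr5:148392766-148393065, minus strand): caaaaacgtatTGTTCTgtgcggacaat
Slc6a21 (chr7:45282623-45282922, plus strand): gctggaggccaTGTTCTctactccctcg
The match began 108, 75 and 100 bases before the start in these genes. Such short matches are frequent, and a match is no evidence of binding. The amino acid response element core, TGATGCAA, was in 0.895% of all windows and in windows of Slc1a4, Slc7a11 and Slc7a7. None of these genes was called with dex. For each motif a member counted if any of its windows matched, and the 43 members had 64 windows. The share of windows and the share of members are thus not directly comparable.

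The falls of Slc7a8 and Slc7a1 were called in somatic cells, and in the main edgeR fit neither gene passed the threshold for the difference between cell types. Slc7a8, the neutral light chain, measured 50.3, 60.9 and 53.7 CPM in saline somatic cells and 37.8, 34.1 and 39.6 CPM in dex somatic cells, a log2 fold change of -0.53 (SE 0.109, adjusted p-value 0.0111). In germ cells it was at 17.3, 11.7 and 14.7 CPM with saline and 20.4, 18.1 and 14.7 CPM with dex (0.27, adjusted p-value 0.515). All 3 dex somatic libraries were below the saline ones while the germ cell groups overlapped, and the germ minus somatic difference was 0.83 (95% interval 0.38 to 1.29, adjusted p-value 0.0840 in edgeR, 0.0110 in DESeq2 and 0.00950 with every gene with a count). The somatic call was lost without dex somatic replicate 2 (adjusted p-value 0.0605) or saline somatic replicate 3 (0.0501), in the joint fit (0.0570) and in limma (0.0507 and 0.0514).

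Slc7a1, the arginine and lysine carrier, measured 183, 209 and 178 CPM in saline somatic cells and 149, 149.9 and 137 CPM in dex somatic cells, a log2 fold change of -0.35 (SE 0.0776, adjusted p-value 0.0184). Germ cells gave 89.0, 88.6 and 73.8 CPM with saline and 82.5, 79.0 and 89.6 CPM with dex, with overlapping groups. The germ minus somatic difference was 0.37 (95% interval 0.10 to 0.65, adjusted p-value 0.215). The somatic call was lost without dex somatic replicate 1 (0.0517), dex somatic replicate 3 (0.119), saline somatic replicate 1 (0.0719) or saline somatic replicate 2 (0.0526), and in limma (0.0932 and 0.0965), all adjusted p-values.

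**Figure D4:**
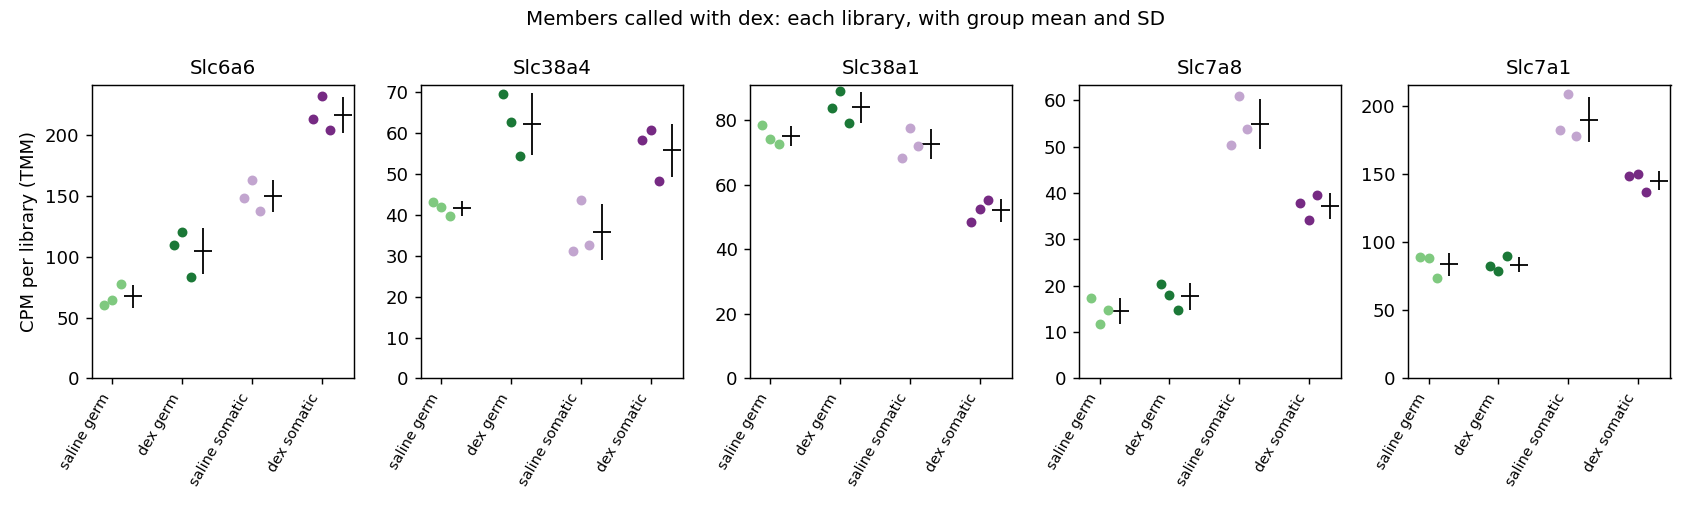
CPM of the 5 members called with dex in each of the 12 libraries, with a panel for each gene, axes from 0, and a line with a bar for the group mean and SD of 3 libraries. Slc6a6 and Slc38a4 are higher with dex in both cell types, and Slc38a1, Slc7a8 and Slc7a1 are lower with dex in somatic cells.

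Marker genes of several somatic cell types moved with dex as well. Peritubular and stromal markers summed to 5104 to 6801 CPM with saline and 8347 to 9719 CPM with dex, and 4 of 8 were called higher. Macrophage markers summed to 38.7 to 65.5 CPM with saline and 16.5 to 23.4 CPM with dex, and 2 of 6 were called lower, as were 2 of 4 tested erythroid markers (248 to 389 against 82.7 to 292 CPM). Sertoli markers summed to 4892 to 5210 CPM with saline and 4738 to 5233 CPM with dex, and 0 of 8 were called. Leydig and endothelial lists each had 1 of 6 called lower, with sums of 119 to 199 against 84.3 to 171 CPM and 244 to 282 against 245 to 317 CPM. The part of these shifts in the somatic results for Slc38a4, Slc6a6, Slc38a1, Slc7a8 and Slc7a1 was not tested. In germ cell libraries Sertoli markers summed to 66.5 to 78.1 CPM with saline and 44.6 to 54.0 CPM with dex, and none of the 7 tested was called. Leydig markers in germ cell libraries summed to 9.07 to 11.8 CPM with saline and 4.83 to 8.79 CPM with dex, and erythroid markers to 7.70 to 9.22 and 4.44 to 7.06 CPM, with none called. The part of these markers in the germ cell results was not tested.

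Beyond the genes called by the main edgeR fit, 3 members lay close to the threshold and are named although their values were seen first. In germ cells Slc6a21, a little studied member of the Slc6 family, went from 1, 0 and 4 counts with saline to 11, 18 and 17 counts with dex, a log2 fold change of 2.96 with an adjusted p-value of 0.0962. Its somatic counts were 82, 53 and 47 with saline and 30, 56 and 50 with dex, so the dex germ cell counts stayed below the somatic counts. Slc6a17, a vesicular carrier of neutral amino acids, measured 14.8, 12.5 and 15.3 CPM in saline germ cells and 23.8, 25.9 and 16.2 CPM in dex germ cells (0.62, adjusted p-value 0.10 in edgeR, 0.0186 in DESeq2 and 0.00810 with every gene with a count). In somatic cells Slc7a10 had a log2 fold change of 0.87 (4.97, 4.85 and 6.10 CPM against 8.45, 7.12 and 12.9 CPM, adjusted p-value 0.0812 in edgeR, 0.0370 in DESeq2 and 0.0204 with every gene with a count).

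**Figure D5:**
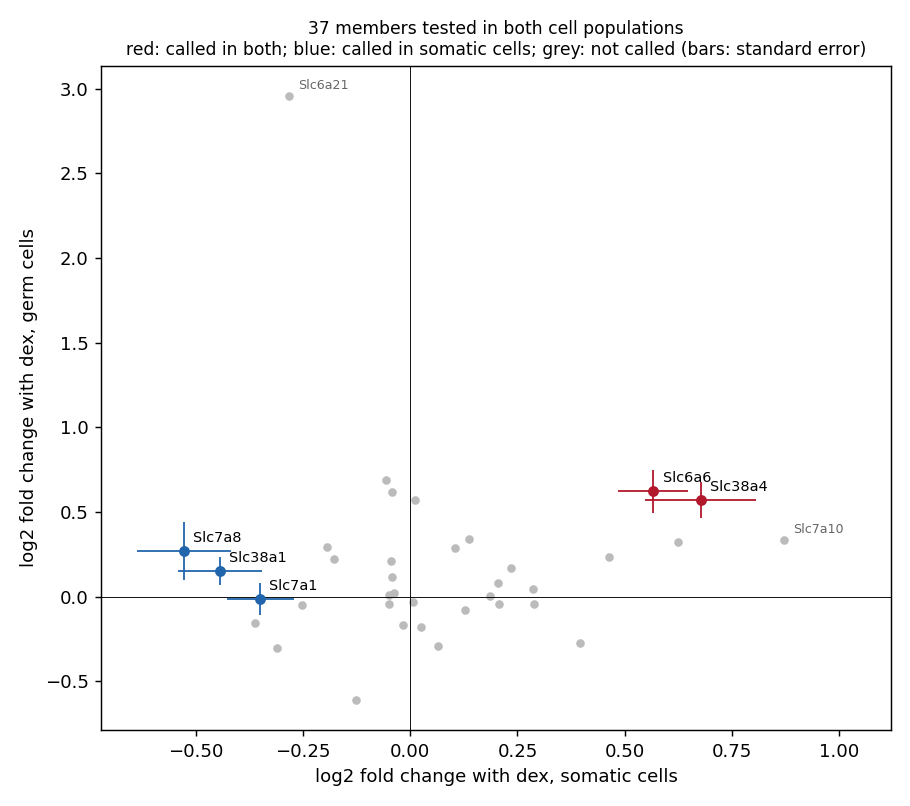
Log2 fold change with dex in germ cells against that in somatic cells for the 37 members tested in both, with standard error bars on the called members. Slc6a6 and Slc38a4 lie at positive values on both axes, Slc38a1, Slc7a8 and Slc7a1 lie at negative somatic values, and Slc6a21 at 2.96 in germ cells was not called.

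Several of the abundant members were not called with dex. In germ cells Slc7a5 measured 173 ± 6.11 FPKM with saline and 172 ± 19.8 FPKM with dex, and Slc3a2 measured 67.0 ± 3.70 and 66.1 ± 2.70 FPKM. In somatic cells Slc38a5 measured 43.1 ± 3.24 and 47.2 ± 5.15 FPKM and Slc6a8 26.7 ± 1.76 and 24.5 ± 1.43 FPKM. Slc6a6, at 17.0 ± 0.997 FPKM in saline somatic cells, stood at 25.2 ± 1.92 FPKM in dex somatic cells, where its libraries overlapped those of Slc6a8.

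Genes that sense or use amino acids were examined as lists, beside 1.25% of all tested genes called with dex in germ cells and 3.91% in somatic cells. In the list of the amino acid stress response, which is driven by ATF4, 1 of 18 tested genes was called in germ cells and 3 of 17 in somatic cells, all higher with dex. The germ cell gene was Ddit4, an inhibitor of mTORC1 signalling and a well known glucocorticoid target, at 29.5, 33.1 and 50.0 CPM with saline and 90.6, 144 and 112 CPM with dex, a log2 fold change of 1.61 (adjusted p-value 0.000570). In somatic cells Ddit4 measured 125 ± 26.4 CPM with saline and 136 ± 22.1 CPM with dex, and the germ minus somatic difference was 1.49 (adjusted p-value 0.0152). The somatic genes were Cebpb (1.30), a transcription factor, Stc2 (0.95), a secreted glycoprotein, and Vldlr (0.85), a lipoprotein receptor. The list did not move as a whole, as 11 of 18 tested genes had a positive log2 fold change in germ cells and 10 of 17 in somatic cells. In somatic cells the mean CPM of Asns, Ddit3, Atf3 and Atf5 was lower with dex and that of Atf4 higher, none of them called.

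Of 32 genes of amino acid sensing by mTORC1, 0 were called in germ cells by edgeR, with 5 at an unadjusted p-value under 0.05, and 2 were called in somatic cells. Castor2, a paralogue of the arginine sensor Castor1, rose from 31.5, 29.8 and 29.6 CPM to 47.8, 53.4 and 51.6 CPM in somatic cells (0.78, adjusted p-value 0.000563) while its germ cell levels were 43.3 ± 2.31 and 40.5 ± 2.26 CPM, a germ minus somatic difference of -0.85 (adjusted p-value 0.00998). Nprl2, a subunit of the GATOR1 complex that holds mTORC1 off when amino acids are scarce, rose in somatic cells by 0.61 (adjusted p-value 0.0301). Its germ cell levels were also higher with dex, at 13.6 ± 1.23 CPM with saline and 20.2 ± 0.817 CPM with dex. Every dex germ library was above every saline germ library, although edgeR did not call Nprl2 in germ cells.

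Of the enzymes of amino acid synthesis and breakdown, 0 of 36 tested were called in germ cells by edgeR, with 6 at an unadjusted p-value under 0.05, and 3 of 35 were called in somatic cells. Asl, the argininosuccinate lyase that yields arginine, rose from 104, 103 and 98.8 CPM to 146, 139.7 and 131 CPM in somatic cells (0.48, adjusted p-value 0.00266). Glul, glutamine synthetase and a classic glucocorticoid target, rose in somatic cells by 0.47 (adjusted p-value 0.0439). Its somatic levels went from 179, 288 and 190.0 CPM to 300.2, 309 and 274 CPM, although saline somatic replicate 2 overlapped the dex libraries. In germ cells Glul was lower with dex and not called by edgeR (249, 262 and 245 CPM against 204, 220 and 222 CPM). Odc1, which makes polyamines from ornithine, fell in somatic cells by 0.37 (adjusted p-value 0.0126), from 223, 213 and 218 CPM to 169, 162 and 166 CPM.

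In a list of 17 further genes outside the rule, which held mostly vesicular, mitochondrial and lysosomal carriers but also Slc6a20a and Slc6a20b of the Slc6 family and Slc7a6os, which is no carrier, 1 of 14 tested was called in germ cells and 0 of 11 in somatic cells, where 1 had an unadjusted p-value under 0.05. The germ cell gene was Slc32a1, the vesicular GABA and glycine carrier, which rose from 0.891, 0.800 and 1.07 CPM to 4.75, 3.49 and 3.82 CPM (2.11, adjusted p-value 0.00469) and was at 0 in every somatic library. Across all 4 lists the median log2 fold changes lay between -0.02 and 0.01 in germ cells and between -0.06 and 0.07 in somatic cells, near those of all genes.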

How the data were processed

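Poly(A) RNA from sorted cells was sequenced in 12 libraries. The authors aligned reads to mm10 with HISAT2 2.0.5, and the deposited table holds raw counts per gene from featureCounts 1.5.0-p3. A second deposited table holds FPKM, which the authors computed from those counts, gene lengths and library totals. The annotation release and the strand setting are not given in the sources used here. Deposited tables of the authors' own fold changes and p-values (DESeq2 1.20.0) were not used.

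Counts were normalized by TMM and tested with edgeR 4.0.16 (quasi-likelihood, R 4.3.3) in genes passing filterByExpr at a minimum count of 10. Each contrast was fitted in its own 2 groups, and the difference between cell types in all 12 libraries. Benjamini-Hochberg adjustment ran over all tested genes, with a threshold of 0.05, and intervals are 95%. Per-library depth ran from 18459692 to 25178477 counts. Counting intervals and the floor of 3 counts cover counting error only. Samples are pools of litters, and p-values measure the spread between such pools. The scripts were tested on simulated data with less spread between samples than the real data. In the real data the coefficient of variation between samples, beyond counting error, was 14.4% in germ cells and 17.0% in somatic cells.

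Alternatives were DESeq2 1.42.0, its size factors, library totals, other count filters, limma 3.58.1 on log2(FPKM + 0.1) and log2(FPKM + 1), all 12 libraries in one fit, a replicate block and each library left out. Named genes were members called with dex, up to 8 with the largest germ to somatic folds in each direction, the 5 highest by FPKM in each group, and a fixed list of 24 known transporters. The members and lists were chosen with earlier results of these data known. Members were matched to GENCODE M21, where 59 of 61 had identical coordinates. Figures were drawn with matplotlib 3.10.9. A named gene is not reported here.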

Additional observations from a re-analysis of the deposited data

Results flagged for a closer look

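A single result was singled out because the dex effect differed between germ and somatic cells in a test of the difference itself. For Slc38a1 the germ cell effect minus the somatic effect was 0.63 on the log2 scale, with all 3 dex libraries below the saline libraries in somatic cells. In germ cells all 3 were only slightly above them, and the germ cell effect was not called (edgeR adjusted p-value 0.434). The difference was called in 10 of 21 settings. No group had more than 3 samples, so single libraries could not be tested as outliers.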

How the results depend on the processing

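In germ cells dex changed 2 members and 231 genes. The members fell to 1 with the replicate block, which lost Slc6a6 (adjusted p-value 0.103), or with all 12 libraries in one fit and to 0 in limma at either pseudocount, and single libraries left out gave 0 to 3. The genes were 711 with DESeq2, 767 with every gene with a count, 65 with the block, 6 and 12 in limma, 142 in the joint fit and 49 to 265 with a library left out. In somatic cells 5 members and 655 genes were called. Limma gave 1 member at either pseudocount and libraries left out gave 2 to 4, and the genes were 1061 with every gene with a count, 251 and 281 in limma and 354 to 547 with a library left out. For germ against somatic cells in saline, 43 members became 27 when every library needed 10 counts. Slc7a14, Slc6a12, Slc1a1 and Slc36a2 were below 10 counts in saline somatic libraries, so this filter left them untested. Calls higher in germ cells went from 19 to 8 and calls higher in somatic cells from 24 to 19. Over all genes, the share of calls that were higher in germ cells went from 52.0% to 48.7%. The median over the members moved from -0.10 to -0.58, and that over all genes from 0.07 to -0.04. The difference between cell types had 1 member and 170 genes. Members were 4 with DESeq2 or with every gene with a count, 0 with the block (Slc38a1, adjusted p-value 0.0504) or limma, and 0 to 2 with a library left out. Genes were 648 with DESeq2, 706 with every gene with a count, 262 with 10 counts in every library, 104 with the block, 57 in limma at a pseudocount of 0.1 and 79 to 172 with a library left out. With a library left out, the difference for Slc38a4 (-0.07) ran from -0.2198 to 0.0032, changing sign to 0.0032 and 0.0003 without dex somatic replicate 2 and saline somatic replicate 3, and that for Slc6a6 (0.09) ran from -0.0159 to 0.2116, changing sign to -0.0159 and -0.0034 without dex germ replicate 2 and saline germ replicate 1. The cause of these changes was not tested. Over all named genes with a library left out, 274 values kept their direction and side of the threshold, 32 lost the call, 2 gained it and 4 changed sign. The main fits treated samples as unpaired. Deviations of same-numbered samples correlated between -0.0880 and 0.0449. The labels do not say which litters each sample pooled, so whether samples shared litters is not known. The block left 5 members called in somatic cells and 42 and 40 between cell types in saline and dex. Of the 8 members with too few counts for the main fits, Slc36a3 and Slc6a19 were called between cell types with every gene with a count. Slc36a3 was called in saline and Slc6a19 in dex. Slc6a18 and Slc7a12 had no count in any library. The part of depth in these low counts was not tested.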
